A study of Mus musculus with 6 samples.

Results

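The clustered replication-dependent histone genes were examined in embryonic mouse kidneys that lack Dicer in the renal stroma. Members were all probes whose platform gene symbol began with Hist1h, Hist2h, Hist3h or Hist4h, or with the updated names of the same genes. That rule used symbols and no expression value, but the set was chosen with earlier results of these data known. There were 90 such probes of 60 genes, among 45277 usable probes and 19057 genes with one. A probe was tested where its detection p-value, which sets its signal against that of negative control beads, was under 0.05 on at least 3 of the 6 arrays. Of the 90 probes 71 were tested, from 49 genes, among 18639 tested probes in all. These were 3 of 7 H1 probes, 22 of 24 H2a probes, 15 of 20 H2b probes, 13 of 18 H3 probes and 18 of 21 H4 probes.

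Illumina MouseWG-6 v2.0 arrays were used for whole kidneys of E15.5 embryos, with 3 arrays of FoxD1GC;Dicer fl/fl kidneys and 3 of control kidneys from littermates without Cre. In FoxD1GC mice an eGFP-Cre fusion protein is expressed from the endogenous Foxd1 locus in the renal stroma. It cuts the floxed exon, not the whole gene, out of the Dicer1 alleles of those cells and their descendants. FoxD1GC mice were kept on a 129-Elite background and Dicer fl/fl mice on C57BL/6J. The sources used here do not give the Dicer1 alleles of the controls. Control and mutant arrays were matched within 3 litters, and each array held RNA pooled from 2 embryos. The mutants carried Cre at Foxd1 and the controls did not, so an effect of that allele and one of Dicer1 loss cannot be told apart. Because whole kidneys were measured, fewer cells of a type and less RNA per cell cannot be told apart either.

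Core histones H2A, H2B, H3 and H4 form the protein spool on which DNA is wound, and the linker histone H1 binds where the DNA enters and leaves that spool. Cells make the replication-dependent histones mainly during S phase, from intronless genes that lie in clusters, so that new DNA can be packaged as it is copied. Their mRNAs end in a stem-loop bound by the protein Slbp rather than in a poly(A) tail, whereas the array labelling used here primes from poly(A). The levels below are therefore those of histone RNA that entered such labelling, and they are not measures of all histone mRNA. Several genes of a class have nearly identical coding sequences, and nearly all H4 genes encode the same protein. The probe sequences were not used here, so a probe named for one gene may also measure its copies, and probes of 1 class are not independent of each other.

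The promoters of the H4 genes are shown first because H4 was the class with the lowest median log2 fold change. Each sequence below holds the 120 bases before the start of a gene in RefSeq (GRCm38.p6), written 5′ to 3′ on the strand of the gene. Capitals mark GGTCCG in H4 genes, letters of an H4 promoter element, and ATTTGCAT in the H2b gene, the octamer bound by POU factors. H4c1 is shown as the H4 gene without GGTCCG.
H4c9 (chr13:22041363-22041482, minus strand): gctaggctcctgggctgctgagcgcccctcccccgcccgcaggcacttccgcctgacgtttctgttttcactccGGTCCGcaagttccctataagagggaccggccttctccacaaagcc
H4c18 (chr13:21832198-21832317, minus strand): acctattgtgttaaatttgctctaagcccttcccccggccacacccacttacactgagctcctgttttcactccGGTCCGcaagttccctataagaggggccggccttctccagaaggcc
H4c6 (chr13:23551669-23551788, minus strand): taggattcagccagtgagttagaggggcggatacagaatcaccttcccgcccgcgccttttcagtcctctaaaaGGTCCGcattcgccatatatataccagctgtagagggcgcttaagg
H4c3 (chr13:23698459-23698578, minus strand): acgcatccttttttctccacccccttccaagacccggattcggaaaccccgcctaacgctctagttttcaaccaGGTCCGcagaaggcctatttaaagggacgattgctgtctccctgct
H4c11 (chr13:21734914-21735033, plus strand): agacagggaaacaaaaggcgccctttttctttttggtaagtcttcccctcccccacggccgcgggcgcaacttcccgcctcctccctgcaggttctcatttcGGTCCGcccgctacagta
H4c12 (chr13:21750554-21750673, minus strand): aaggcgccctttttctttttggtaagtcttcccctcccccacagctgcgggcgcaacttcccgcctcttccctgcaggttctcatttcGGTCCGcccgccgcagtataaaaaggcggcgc
H4c1 (chr13:23761250-23761369, minus strand): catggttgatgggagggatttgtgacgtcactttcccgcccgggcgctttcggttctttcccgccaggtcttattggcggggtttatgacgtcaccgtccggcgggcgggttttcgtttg
H2bc12 (chr13:22035701-22035820, plus strand): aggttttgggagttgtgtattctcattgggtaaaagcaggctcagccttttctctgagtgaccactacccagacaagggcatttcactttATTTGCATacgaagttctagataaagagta

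GGTCCG began 46 bases before the start in H4c9, H4c18, H4c6 and H4c3, 18 bases before it in H4c11 and 32 bases before it in H4c12. Windows of 300 bases, from 250 before to 50 after the start, were searched on both strands for 54 of the 60 histone genes, which have 55 windows. GGTCCG was in 11 of 12 H4 windows, in 1 of 13 H2b windows and in none of the 6 H1, 17 H2a and 7 H3 windows, against 8.25% of all 32851 promoter windows. ATTTGCAT was in 7 of 17 H2a and 7 of 13 H2b windows and in no window of the other classes, against 1.74% of all windows. CCAAT, the letters bound by NF-Y, was in every H1, H2a, H2b and H3 window but in 3 of 12 H4 windows, against 37.4% of all windows. The H4 promoters therefore differed in these letters from those of the other classes, which is a description of sequence and not of binding. The other strings searched were TATAAA (8 of 12 H4 windows, 13.6% of all), GTCCG, which lies within GGTCCG (12 of 12, 23.4%), CGGACGTT (0 of 12, 0.225%), CGACCA (4 of 12, 4.67%) and GGTTTTC (4 of 12, 4.62%). Some H4 promoters were near copies of each other, with 99.6% identity in a global alignment of the 250 bases before the start for H4c17 and H4c18 and 90.8% for H4c11 and H4c12, but 64.4% for H4c18 and H4c9.

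Between 37.5% and 44.7% of the usable probes were detected on an array. As a ratio to the median signal of undetected probes, the 95th percentile of signal was 7.90 and 7.91 on the mutant arrays of litters 2 and 3 and 9.45 to 10.5 on the others. Xist, which female cells express, averaged 8.16 (log2, 4 probes) on the control array of litter 1 and 8.27 and 8.59 on the mutant arrays of litters 2 and 3, and 4.49 to 4.65 on the others. The sex makeup of the pools thus differed between genotypes in each litter, in one direction in litter 1 and in the other in litters 2 and 3. Of 28 marker genes of kidney cell types with a probe, 24 were tested. Of the 7 tested stroma genes 5 were below 0 and 2 above it, with a median of -0.13. Penk, a gene of the medullary stroma, was at -2.09 (adjusted p = 0.32 from limma) and the rest lay between -0.38 (Tnc) and 0.33 (Pdgfrb). For the brightest Dicer1 probe the log2 fold change was -0.33 with a standard error (SE) of 0.21 (limma adjusted p = 0.86). Dimmer Dicer1 probes had -0.15 (SE 0.23) and 0.09 (SE 0.27), so the probes did not share a sign. The sources used here do not say if any of these probes covers the floxed exon.

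The comparison of the genotypes asked which histone genes differed between the FoxD1GC;Dicer fl/fl and control kidneys. The fit reported here did not repeat the study's own processing. In it no histone probe had a B-statistic above 0, which was the study's threshold, or an adjusted p under 0.05. Neither did any of the 18639 tested probes (0.0% called). By limma with litter in the model, 13 of the 71 histone probes had an unadjusted p under 0.05 and a lower level in the mutant, and none had one with a higher level. Over all tested probes 5.52% had such a p, 2.92% lower and 2.59% higher in the mutant. The adjusted p of each of those 13 probes was 0.86, so they are described by their values and were not called. They came from 10 genes, and 11 of the 13 were H4 probes. An H3c7 probe among the others was near background in the mutants, and among the 64 histone probes detected on all 6 arrays 12 were lower at that p, beside 2.55% of all probes so detected. Of the 71 probes 57 had a log2 fold change below 0, against 51.3% of all tested probes. The mutant array was below the control array in all 3 litters for 31 histone probes (13.6% of all tested probes), and all 3 mutant arrays lay below all 3 control arrays for 18 (7.0% of all tested probes). In the other direction all mutant arrays lay above all control arrays for 1 histone probe (5.92% of all tested probes). The median log2 fold change of the histone probes was -0.17, beside -0.01 for all tested probes.

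**Figure D1:**
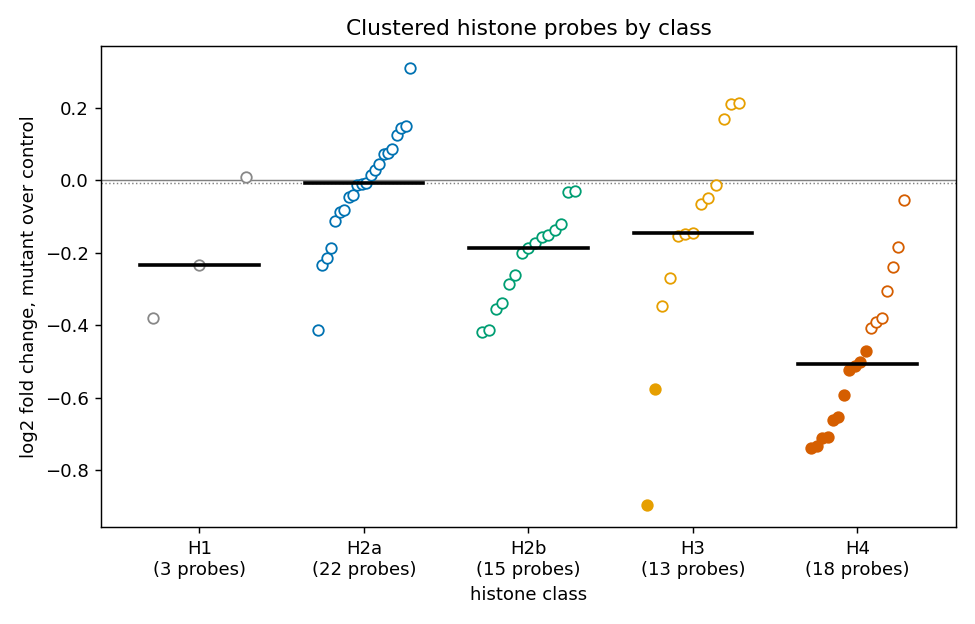
Log2 fold change of mutant over control (vertical axis) for each of the 71 tested histone probes, in columns by class; filled points have an unadjusted p under 0.05, black bars are class medians and the dotted line is the median of all tested probes. All 18 H4 points lie below 0, 11 of them filled, whereas the 22 H2a points lie on both sides of 0.

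H4, which pairs with H3 in the core of the nucleosome, was the class with the lowest median. All 18 tested H4 probes, of 12 genes, had a log2 fold change below 0, with a median of -0.51 and a range from -0.74 to -0.06. Of these, 11 probes of 8 genes had an unadjusted p under 0.05 (2.92% of all tested probes were lower at that p). The mutant array was below the control array in all 3 litters for 13 of the 18 probes (13.6% of all tested probes). All mutant arrays lay below all control arrays for 11 (7.0% of all tested probes). Within litters 1, 2 and 3 the median difference was -0.45, -0.55 and -0.53. With 1 probe per gene, the 12 H4 genes had a median of -0.58.

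H4c9 (Hist1h4i) had levels of 8.72, 8.42 and 8.42 (normalized, log2) in the controls of litters 1, 2 and 3 and of 8.05, 7.42 and 7.95 in the mutants. Every mutant array was lower than every control array, and the mutant array of litter 2 was the lowest. Its log2 fold change was -0.71 (SE 0.21, unadjusted p = 0.012, adjusted p = 0.86 from limma), 1.64-fold lower in the mutant. H4c11 (Hist1h4j) had levels of 7.79, 7.86 and 7.85 in the controls and of 7.11, 7.34 and 6.84 in the mutants. The 3 controls lay within a narrow band, and all mutants were below it. The log2 fold change was -0.73 (SE 0.21, unadjusted p = 0.0098, adjusted p = 0.86 from limma).

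H4c3 (Hist1h4c) had the largest difference of the class and a low level, 6.28, 6.06 and 6.53 in the controls and 5.91, 5.24 and 5.50 in the mutants. The groups did not overlap, although the mutant of litter 1 was close to the control of litter 2. The log2 fold change was -0.74 (SE 0.22, unadjusted p = 0.012, adjusted p = 0.86 from limma). The brighter of the tested H4c2 (Hist1h4b) probes had levels of 6.68, 7.42 and 6.75 in the controls and of 5.91, 6.63 and 6.17 in the mutants. Here the litter 2 arrays were the highest of both genotypes, so that the difference was clearer within litters than between groups. Its log2 fold change was -0.71 (SE 0.19, unadjusted p = 0.0086, adjusted p = 0.86 from limma), and that of the second H4c2 probe was -0.52.

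H4c6 (Hist1h4f) was measured by 3 tested probes at different levels, and their log2 fold changes were -0.66, -0.47 and -0.59 from the brightest to the dimmest. The brightest gave 9.74, 9.52 and 9.38 in the controls and 8.94, 8.66 and 9.05 in the mutants. All of its mutant arrays were lower than its control arrays. The second probe gave 8.11, 7.68 and 8.29 in the controls and 7.63, 7.33 and 7.69 in the mutants, with overlap because the mutant of litter 3 reached the control of litter 2. H4c18 (Hist1h4n) gave 8.20, 7.81 and 8.13 in the controls and 7.54, 7.26 and 7.38 in the mutants, without overlap. The log2 fold change was -0.65 for that probe and -0.38 for a dimmer one, whose unadjusted p was 0.13.

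H4c17 (Hist1h4m), whose promoter nearly matches that of H4c18, had levels of 8.19, 7.86 and 7.96 in the controls and of 7.55, 7.28 and 7.63 in the mutants. The H4c17 log2 fold change was -0.51 (SE 0.20). Whether the probes of H4c17 and H4c18 measured separate RNAs was not tested. H4c12 (Hist1h4k) had the tightest groups, with 7.22, 7.23 and 7.33 in the controls and 6.80, 6.75 and 6.73 in the mutants for the dimmer of its probes. Its log2 fold change was -0.50 (SE 0.19, unadjusted p = 0.037, adjusted p = 0.86 from limma). The brighter H4c12 probe had a log2 fold change of -0.39 (unadjusted p = 0.099), and its groups overlapped.

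**Figure D2:**
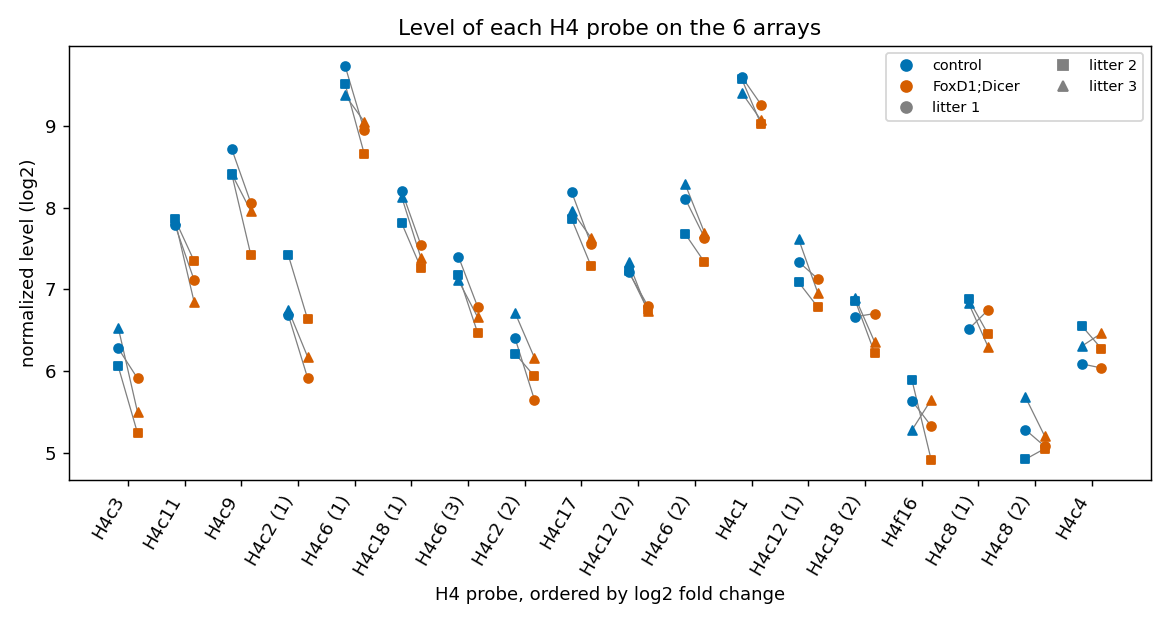
Normalized level (log2, vertical axis) of each of the 18 tested H4 probes on the 6 arrays, ordered by log2 fold change, with control in blue, FoxD1GC;Dicer fl/fl in orange, a symbol for each litter and lines joining the arrays of a litter; numbers in brackets rank the probes of a gene by level. Lines run downwards in all 3 litters for 13 probes (13.6% of all tested probes), and the probes at the right, such as H4c4 and H4f16, overlap between groups.

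The remaining H4 probes did not have an unadjusted p under 0.05. H4c1 (Hist1h4a), the brightest of the class and the H4 gene whose window lacks GGTCCG, gave 9.60, 9.57 and 9.40 in the controls and 9.26, 9.02 and 9.07 in the mutants. Its groups did not overlap, with a log2 fold change of -0.41 (SE 0.19, unadjusted p = 0.075). H4c4 (Hist1h4d) has GGTCCG in its window and gave 6.09, 6.55 and 6.31 in the controls and 6.04, 6.27 and 6.46 in the mutants. These groups overlapped, with a log2 fold change of -0.06 (95% confidence interval -0.54 to 0.43). H4c8 (Hist1h4h) had log2 fold changes of -0.24 and -0.18, and H4f16 (Hist4h4), the gene that lies alone on chromosome 6, had one of -0.31. H4 genes with GGTCCG in the window thus had values across the whole range of the class.

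H2a, which pairs with H2b on the outside of the nucleosome core, had the brightest probes of all the classes and a median log2 fold change of -0.01. None of its 22 probes had an unadjusted p under 0.05, 12 were below 0 and 10 above it. Within litters 1, 2 and 3 its median difference was 0.006, -0.005 and -0.02. H2ac10 (Hist1h2af) was the brightest, with 14.23, 14.25 and 14.42 in the controls and 14.24, 14.16 and 14.17 in the mutants. The groups overlapped, and the log2 fold change was -0.11 (95% confidence interval -0.58 to 0.35). The lowest value of the class was that of H2ac8 (Hist1h2ae), with 6.75, 6.60 and 6.38 in the controls and 6.07, 6.48 and 5.94 in the mutants. It had a log2 fold change of -0.41 (unadjusted p = 0.092) and overlapping groups. The highest was that of a dim H2ac18 (Hist2h2aa1) probe, with 4.93, 5.69 and 5.46 in the controls and 5.54, 5.34 and 6.13 in the mutants, a log2 fold change of 0.31 (unadjusted p = 0.28). The other H2ac18 probes had log2 fold changes of -0.23 and 0.15, so the 3 probes of this gene did not share a sign.

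H2b probes were all on the low side, by smaller amounts. All 15 had a log2 fold change below 0, with a median of -0.19 and a range from -0.42 to -0.03. None had an unadjusted p under 0.05, and 7 were lower in all 3 litters (13.6% of all tested probes). The median difference was -0.03 in the first litter but -0.40 and -0.27 in litters 2 and 3. The litters with the larger differences were those in which the mutant pools held the Xist signal and had the lower ratio of high to undetected signal. With Xist as a covariate the H2b median was -0.15. Since high Xist and the lower ratio marked the same mutant arrays, their parts cannot be told apart and were not tested. H2bc4 (Hist1h2bc) was the brightest H2b probe, with 10.15, 9.87 and 9.88 in the controls and 9.99, 9.20 and 9.45 in the mutants. Its mutant array of litter 1 was above the controls of litters 2 and 3, and the log2 fold change was -0.42 (SE 0.21, unadjusted p = 0.085). All mutant arrays lay below all control arrays for 4 of the 15 probes (7.0% of all tested probes). Among them were H2bc15 (Hist1h2bn), at -0.34, and H2bc7 (Hist1h2bf), at -0.29. The probes of H2bc21 (Hist2h2be) had -0.03 and -0.17, and the groups of each overlapped.

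H3, the partner of H4, had probes on both sides of 0. Of 13 probes 10 were below 0 and 3 above it, with a median of -0.15, and 2 had an unadjusted p under 0.05. The dimmer tested probe of H3c7 (Hist1h3f) gave 6.07, 5.82 and 6.04 in the controls and 5.56, 4.79 and 4.89 in the mutants. All mutants were lower, but the probe was detected on 3 control arrays and 1 mutant array, so it was tested only because of its level in the controls. Its fitted log2 fold change of -0.90 (SE 0.22) rests on mutant values near background and supports no count. The brighter H3c7 probe had -0.15, with levels of 9.01, 9.45 and 9.30 in the controls and 8.96, 9.25 and 9.11 in the mutants, which overlapped.

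H3c10 (Hist1h3h) was measured by 3 probes that disagreed. The dimmest gave 7.10, 8.16 and 7.20 in the controls and 6.84, 7.19 and 6.70 in the mutants, a log2 fold change of -0.58 (SE 0.22, unadjusted p = 0.037, adjusted p = 0.86 from limma). The control of litter 2 stood high, and the groups overlapped. The brightest gave 11.996, 11.75 and 11.78 in the controls and 11.66, 12.05 and 12.45 in the mutants, a log2 fold change of 0.21, and the third probe had -0.35. H3c13 (Hist2h3b), the brightest H3 probe, had 12.46, 12.21 and 12.27 in the controls and 12.25, 12.51 and 12.82 in the mutants, a log2 fold change of 0.21 (95% confidence interval -0.33 to 0.75). In both of these bright probes the mutant was below the control in litter 1 and above it in litters 2 and 3. Their values were -0.10 and -0.09 when arrays were scaled to one median rather than by quantiles, a scaling under which the median of all tested probes was -0.22.

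Linker histone H1 rested on 3 tested probes of 2 genes. H1f2 (Hist1h1c) gave 9.59, 9.61 and 9.61 in the controls and 9.46, 9.05 and 9.16 in the mutants for its brighter probe. The controls were nearly equal and all mutants lower, with a log2 fold change of -0.38 (SE 0.20, unadjusted p = 0.10). The dimmer H1f2 probe had -0.23, also without overlap, and H1f5 (Hist1h1b) had 0.01.

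Because the classes differed in brightness, the probes were also set out by level, in splits made after their values were seen and with no test. The 12 H2a probes with a mean level of 12 or more, each at or above percentile 98.7 of the tested probes by level, had a median log2 fold change of 0.04, and the 10 dimmer H2a probes had one of -0.06. The highest mean level of any tested probe was 14.45, and whether differences register in full near that level was not tested. All 18 H4 probes lay between 5 and 10. In that range the 35 histone probes of other classes had a median of -0.17, beside -0.51 for H4. Of the 35, 32 were below 0 (51.1% of all tested probes in that range). An unadjusted p under 0.05 with a lower level was seen for 2 of them and for 11 H4 probes. The 2 include the dimmer H3c7 probe, which supports no count. Over all tested probes in that range the median was -0.01 and 3.26% were lower at that p. The groups were not matched within that range, with a median level of 6.97 for H4 and 8.31 for the other classes, and the part of brightness was not tested.

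**Figure D3:**
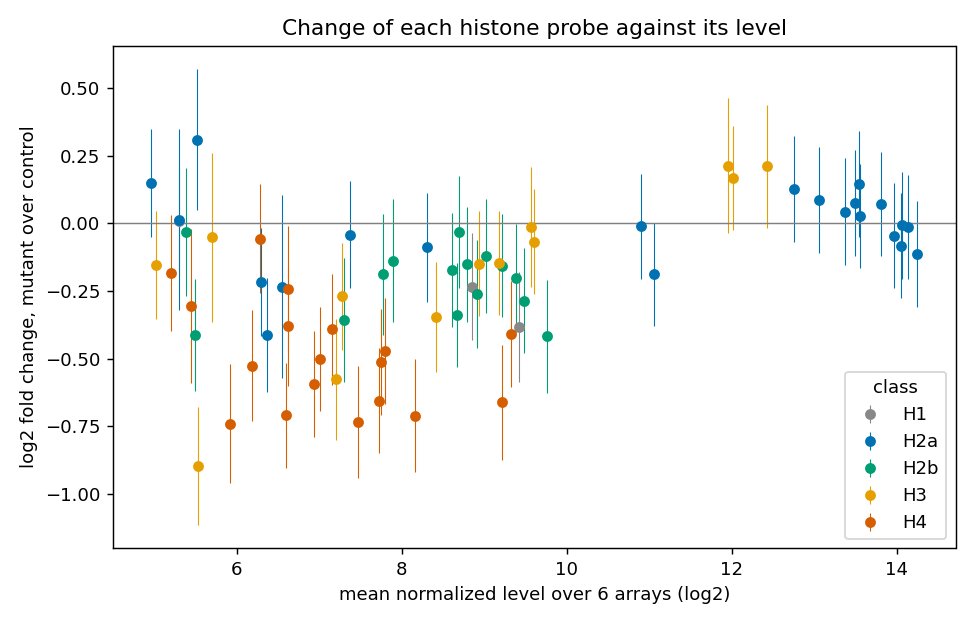
Log2 fold change of mutant over control (vertical axis, bars of 1 standard error either side) against mean normalized level over the 6 arrays (log2, horizontal axis) for the 71 tested histone probes, coloured by class. H4 probes lie between levels 5 and 10 and below 0, whereas the 12 H2a probes above level 12 lie near 0.

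By position, 56 of the tested probes belonged to the Hist1 cluster on chromosome 13, 12 to the Hist2 cluster on chromosome 3, 2 to Hist3 on chromosome 11 and 1 to Hist4 on chromosome 6. The median was -0.21 for Hist1 probes and -0.04 for Hist2 probes. All 13 probes with an unadjusted p under 0.05 were lower and in Hist1, 23.2% of its probes. They include the dimmer H3c7 probe, which was tested only because of its level in the controls and supports no count. Over all tested probes 2.92% were lower at that p. Hist1 held 17 of the 18 tested H4 probes, and H4c14, the H4 gene of Hist2, was not tested. Position and class were thus mixed in that contrast, and the part of each was not tested. Within Hist1, genes separated by over 150000 bases were put in different groups along the chromosome, which made 3 groups. The H4 probes had medians of -0.51, -0.71 (1 probe) and -0.50 in these groups, whereas the H2a probes had 0.07, 0.08 and -0.06. The H2b probes had -0.24, -0.16 and -0.26. Of the 14 Hist1 H2a probes 11 had a level of 12 or more, with a median of 0.04. The other 3 (H2ac11, H2ac4 and H2ac8) had -0.19, -0.22 and -0.41 and were lower in all 3 litters (13.6% of all tested probes).

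The 19 histone probes that were not tested included 13 detected on no array and 6 detected on 1 or 2. Among those on no array were the probes of H1f6 (Hist1h1t), H2ac1 (Hist1h2aa) and H2bc1 (Hist1h2ba), which are genes of the male germ line. Also on no array were those of H1f1, H1f4 and H2bu1-ps. The rest were further probes of H2bc6, H3c4, H3c7, H3c8, H3c14 and H4c2, genes that had other, tested probes. H4c14 (Hist2h4), the H4 gene of the Hist2 cluster, was detected on 2 control arrays and no mutant array, and it was not tested. There were 11 genes with no tested probe.

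Other genes of histone supply were read from lists, each gene through its brightest tested probe. Of 16 genes for transcription and 3′ end processing of histone mRNA, 13 were tested, 8 were below 0 and 5 above it, and none had an unadjusted p under 0.05. Npat, which activates histone transcription, had a log2 fold change of -0.06 (SE 0.19). Slbp was detected on 1 array and Lsm11, a part of the U7 particle that cuts histone mRNA, on none, so neither was tested. The median of the 13 genes was -0.06.

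Of 17 tested histone chaperones, which carry histones to DNA, 13 were above 0 and 4 below it, with a median of 0.18. Supt16, a subunit of the FACT complex, had a log2 fold change of 0.91 (SE 0.26, unadjusted p = 0.0098, adjusted p = 0.86 from limma), and Rbbp4, a subunit of the CAF-1 complex, had one of -0.63 (unadjusted p = 0.036). Over litters 1, 2 and 3 the chaperone median was -0.15, 0.18 and 0.31, so it changed sign between litters. The 10 replication-independent variants, among them H2az1 and H3f3a, had a median of 0.04 and no unadjusted p under 0.05.

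The cell cycle lists had medians near 0, with members on both sides. The 32 tested genes of S phase and DNA replication had a median of -0.03, with 17 below 0, 15 above it and a range from -0.74 (Gins1) to 0.69 (Mcm3). The 15 tested genes of G2 and mitosis had one of -0.01, with 8 below 0, 7 above it and a range from -0.31 (Tpx2) to 0.53 (Top2a). None of either list had an unadjusted p under 0.05. The part of cell division in the H4 values was not tested.

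**Figure D4:**
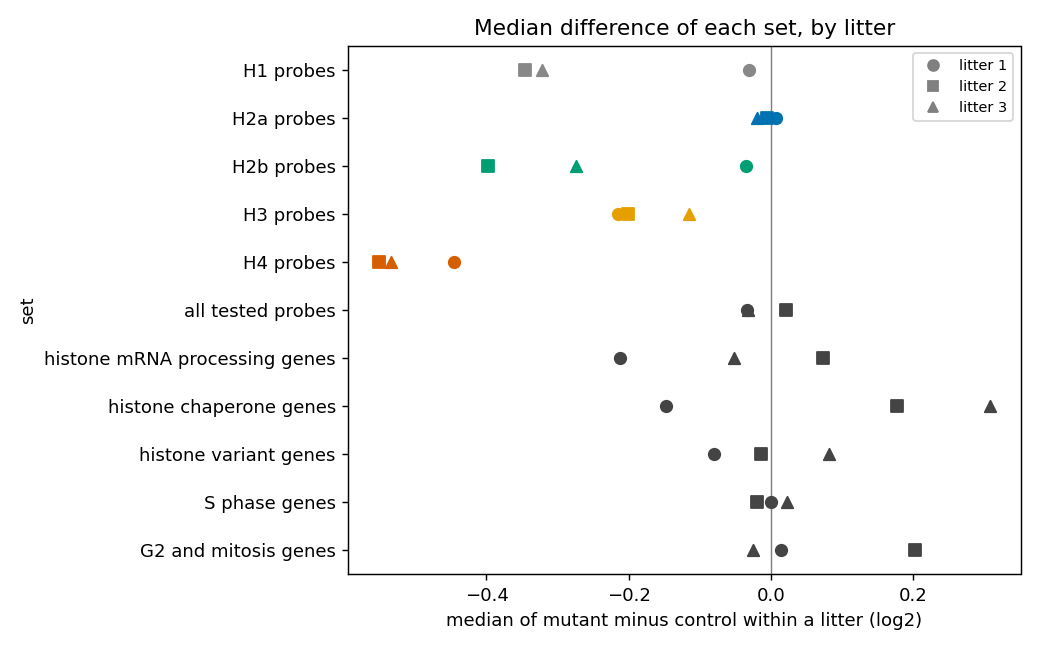
Median difference of mutant minus control (log2, horizontal axis) within each of the 3 litters for the histone classes, all tested probes and lists of genes for histone supply and the cell cycle; each symbol is 1 litter. The H4 symbols lie between -0.55 and -0.45 and close together, whereas the H2b and chaperone symbols spread between litters.

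Markers of other cell types were read beside the histone values. Of 7 tested macrophage genes 6 were above 0, and C1qa was at -0.23. Cx3cr1 at 0.87 and C1qc at 0.59 had an unadjusted p under 0.05 (2.59% of all tested probes were higher at that p). The list's median difference was 0.49, 0.33 and -0.03 in litters 1, 2 and 3, so it changed sign between litters. Its median level was 6.21 to 6.49 in controls and 6.68 to 6.93 in mutants. The 10 tested erythroid genes had a median of 0.005, with Slc4a1, the red cell anion exchanger, at -0.60 (unadjusted p = 0.031), and a median level of 8.08 to 9.30 in controls and 7.79 to 9.23 in mutants. Of 6 adrenal cortex genes only Mc2r, the ACTH receptor, was tested, and the steroid genes Star and Cyp11a1 were not. Mc2r was detected on 4 arrays, with levels of 5.43, 4.76 and 4.94 in the controls and 5.76, 6.10 and 6.23 in the mutants. Its log2 fold change of 0.99 (limma unadjusted p = 0.0070) thus rests on control values near background. The 6 nephron progenitor genes had a median of 0.17 that changed sign between litters (-0.23, 0.28 and 0.40), with 4 above 0 and 2 below it. Eya1 was at 0.60 (unadjusted p = 0.048), Six2 at 0.67 (unadjusted p = 0.14), Osr1 at -0.29 and Meox1 at -0.19. In limma the adjusted p of each of these genes with an unadjusted p under 0.05 was 0.86, and the part of these cells in the histone values was not tested.

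Leaving out a litter moved the number of low probes more than their size. Histone probes lower at an unadjusted p under 0.05, 13 in the fit reported, numbered 17, 2 and 4 without litters 1, 2 and 3. The 11 H4 probes among them became 10, 1 and 3. The histone counts did not leave out the dimmer H3c7 probe, which supports no count. The share of all tested probes lower at that p, 2.92% in the fit reported, also moved, to 9.87%, 1.49% and 1.59% in those fits. The H4 median was -0.51, -0.52 and -0.55 in those fits, and all 18 probes stayed below 0 except in the fit without litter 2, in which 16 did. With Xist as a covariate the H4 median was -0.51, and the part of sex in the H4 values was not tested.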

How the data were processed

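Whole-kidney RNA was assayed on 6 Illumina MouseWG-6 v2.0 arrays after TotalPrep labelling. The authors deposited bead signals as intensity, averaged per probe and not normalized, and a detection p-value of each signal against negative control beads. The authors used lumi and limma, and their deposited series-matrix values on a log2 scale served as an alternative, since the sources used here do not name their transformation. Of 45281 entries, 2 that lacked an identifier and 2 that shared one were not used. By the platform annotation 34881 probes had 1 gene, 18 had several and 10378 were unnamed here. Histone probes were found through the older symbols that RefSeq holds as synonyms.

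Signals were background-corrected with normexp, using the detection p-values and an offset of 16, then quantile-normalized and put on a log2 scale. The fit was lmFit and eBayes in limma 3.58.1 (R 4.3.3) with litter and genotype, a prior share of 0.01 for the B-statistic and Benjamini-Hochberg adjustment over all tested probes. A fold change understates that of dim probes because of the offset. The 6 arrays limit the precision, and no interval accounts for choosing probes. The fit was checked on simulated data. Litter is a block because the labels and methods state shared litters. Deviations of control and mutant arrays of a litter correlated at -0.29, -0.02 and -0.12.

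The named probes were, for each class, the brightest and those of smallest and largest log2 fold change, every histone probe with an unadjusted p under 0.05, Hist1h4k, and the genes of other lists with such a p, with Slbp, Npat and Lsm11. H4c8, H4f16, H2bc15, H2bc7, H4c14, other probes of named genes and list members without such a p were added after their values were seen. Members and lists were chosen with earlier results of these data known. The alternatives were a model without litter, a random litter block, series-matrix values, no background correction, an offset of 50, scaling to one median, no filter, a strict filter (p under 0.01 on 6 arrays), an intensity trend, array weights, Xist as a covariate, 1 probe per gene and each litter left out. Columns of the files were all assigned to samples.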

Additional observations from a re-analysis of the deposited data

How the results depend on the processing

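Of 345 values of 25 named probes under 14 alternatives, 331 kept their direction and their side of the threshold of B above 0. With array weights, litter 2 had a weight of 3.54 and litters 1 and 3 had weights of 0.351 and 0.805. In that fit H4c3 at -0.82 and H4c9 at -0.88 had B above 0. The dimmer H3c7 probe, at -1.01, did so too, but it was tested only because of its level in the controls and supports no count. Reversed values were those of H1f5 (-0.0021 in the series matrix, -0.046 scaled to one median, -0.074 to 0.12 without a litter), the brightest H3c10 probe (-0.096 scaled to one median, -0.016 to 0.49 without a litter) and H3c13 (-0.092 scaled to one median). The others were H2ac18 (-0.10 with array weights), H2bc21 (0.044 with Xist as a covariate, -0.16 to 0.089 without a litter) and H4c4 (-0.16 to 0.053 without a litter).

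Over all tested probes, those with B above 0 numbered 34 with no litter block, 10 with litter as a random block, 5 with no background correction, 3 with an offset of 50, 117 scaled to one median, 18 with an intensity trend, 249 with array weights, 19 with Xist as a covariate and 0 to 35 without a litter. Those with an unadjusted p under 0.05, 1028 in the fit reported, numbered 1863 scaled to one median, 2396 with no filter, 5851 with array weights, 1730 with Xist as a covariate and 551 to 3923 without a litter. Of these, 53.0% were lower in the mutant in the fit reported, 61.1% in the series matrix and 88.4% scaled to one median. Histone probes that were lower at that p, 13 in the fit reported, numbered 12 without the litter block, 20 scaled to one median, 22 with no filter, 27 with array weights (and 1 higher), 7 with 1 probe per gene and 2 to 17 without a litter. Apart from that with 1 probe per gene, these counts did not leave out the dimmer H3c7 probe, which supports no count. The share of all tested probes lower at that p was 2.92% in the fit reported, 4.12% without the litter block and 8.83% scaled to one median. It was 2.86% with no filter, 15% with array weights and 1.49% to 9.87% without a litter.

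The histone median was -0.080 in the series matrix and -0.42 scaled to one median. Scaled to one median, the class medians were -0.52 for H1, -0.24 for H2a, -0.46 for H2b, -0.37 for H3 and -0.72 for H4, where the median of all probes was -0.22. The H4 median was -0.21 in the series matrix, -0.31 with no background correction and -0.40 with an offset of 50. The H3 median was -0.049, -0.060 and -0.076 in the same settings and -0.038 with no filter, under which H1 had -0.042. The H2a median was -0.021 to 0.034 without a litter. No histone probe had B above 0 with the litter block, without it or with litter as a random block. Those fits therefore cannot show whether the block changes a call. Apart from the settings whose construction compresses dim signals, the cause of these shifts was not tested.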
